A study of Mus musculus with 16 samples.

Results

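A set of 8 genes of matrix proteolysis were followed through 12 RNA-seq libraries of cultured mouse male germline stem cells, the in vitro counterpart of the stem cells that sustain sperm production. The 5 proteases were Mmp2, Mmp14, Plau, Plat and Prss23, and the 3 inhibitors were Timp1, Timp2 and Timp3. These 8 members of the set were taken by symbol from the 27128 genes of each deposited table, and every symbol was found. All 8 were among the 14301 genes that averaged at least 1 CPM (read counts put on a common library-size scale) over the 12 libraries.

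The cells came from B6;CBA-Tg(Pou5f1-EGFP)2Mnn/J mice at postnatal day 5.5, in which the Pou5f1 (Oct4) promoter drives EGFP, so every group carried this reporter. Per the labels, germ cells positive for Oct4 and negative for KIT were sorted, grown in StemPro-34 SFM with GDNF, bFGF and EGF, and passaged weekly. The libraries made up 4 experiments with 1 library per group. The feeder-removal series held cells on MEF (mouse embryonic fibroblast) feeders at day 0 and cells at days 4 and 9 of feeder-free culture on Matrigel, a basement membrane extract. The density experiment held an epithelial-like culture on 0.1 µg/cm2 Matrigel and a mesenchymal-like culture on 10 µg/cm2. The reporter series held fractions with low, mid and high GFP sorted from cells on 10 µg/cm2 Matrigel. The inhibitor series held cells treated on MEF feeders with DMSO or with 0.5, 1 or 2 µM UNC0638. UNC0638 is an inhibitor of the histone H3K9 methyltransferases G9a and GLP. The treatment time is given as 48 hours for the UNC0638 libraries and is not given for DMSO. How many mice or cultures stood behind a library, and whether feeder cells were removed before RNA extraction, is not given in the sources used here. ATAC libraries of the 2 densities were not analysed here.

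Matrix metalloproteinases are zinc-dependent enzymes that cut collagens, laminins and other matrix proteins, and TIMPs (tissue inhibitors of metalloproteinases) bind and block their active sites. MMP14 is anchored in the membrane and, together with TIMP2, activates the secreted gelatinase MMP2. The plasminogen activators PLAU and PLAT are secreted serine proteases that convert plasminogen to plasmin, which degrades fibrin and activates further proteases. In the testis, spermatogonia rest on the basement membrane of the seminiferous tubule, and proteases and their inhibitors take part in its turnover.

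The DNA just before the transcription start is shown for Mmp14, Timp1, Timp2 and Timp3, the 4 members matched to 1 annotated start each. These 4 were among the 7 members highest in the mesenchymal-like library. The RefSeq promoter table (GRCm38.p6) matched 5 of the 8 members. Prss23 had 7 annotated starts and is described by counts only, and Mmp2, Plau and Plat are named only. Each window holds the 250 bases before the start, 5′ to 3′ on the gene's strand, and capitals mark matches on either strand to the GC box GGGCGG, the TEAD motif GGAATG or the E-box CAGGTG. They lie at chr14:54431348-54431597 (Mmp14, plus strand), chrX:20869916-20870165 (Timp1, plus), chr11:118355412-118355661 (Timp2, minus) and chr10:86300162-86300411 (Timp3, plus).
Mmp14: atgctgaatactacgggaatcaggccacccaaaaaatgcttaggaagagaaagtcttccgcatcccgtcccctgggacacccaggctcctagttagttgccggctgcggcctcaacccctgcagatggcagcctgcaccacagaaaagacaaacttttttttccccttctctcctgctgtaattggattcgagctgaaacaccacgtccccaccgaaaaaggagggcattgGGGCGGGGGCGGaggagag
Timp1: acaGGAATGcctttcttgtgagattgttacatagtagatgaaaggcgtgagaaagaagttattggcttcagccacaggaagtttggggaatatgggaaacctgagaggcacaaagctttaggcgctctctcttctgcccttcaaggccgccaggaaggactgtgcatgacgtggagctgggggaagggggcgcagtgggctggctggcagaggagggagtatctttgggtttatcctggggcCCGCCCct
Timp2: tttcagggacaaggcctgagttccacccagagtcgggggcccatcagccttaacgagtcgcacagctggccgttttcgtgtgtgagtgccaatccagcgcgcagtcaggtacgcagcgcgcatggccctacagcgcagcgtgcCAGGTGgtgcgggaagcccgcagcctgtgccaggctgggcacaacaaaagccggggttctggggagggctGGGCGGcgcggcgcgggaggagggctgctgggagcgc
Timp3: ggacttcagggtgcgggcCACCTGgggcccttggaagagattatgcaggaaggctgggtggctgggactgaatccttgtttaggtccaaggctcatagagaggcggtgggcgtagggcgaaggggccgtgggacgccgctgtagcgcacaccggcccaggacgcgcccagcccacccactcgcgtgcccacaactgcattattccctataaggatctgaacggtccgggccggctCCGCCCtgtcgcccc

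Counted from the base before the start (-1), a GC box began at -19 and again at -13 in Mmp14, at -8 in Timp1, at -37 in Timp2 and at -15 in Timp3. The adjacent Mmp14 matches do not overlap. Of all 32851 windows in the table, 32.7% held a GC box, so its presence does not single these genes out. The TEAD motif stood at -247 in Timp1 (12.6% of all windows), and the E-box at -107 in Timp2 and -232 in Timp3 (17.2% of all windows). An AP-1 motif (TGACTCA, 4.46% of all windows) and a TATA box (TATAAA, 12.4%) were searched on both strands and were not in the 4 windows. The AP-1 letters were in 2 of the 7 Prss23 windows, which overlap, and the GC box was in 4 of them. GC content was 55.2% for Mmp14, 54.4% for Timp1, 68.0% for Timp2 and 65.6% for Timp3, against a median of 52.4% over all windows. A match is a run of letters and does not show that a factor binds there.

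Total depth ran from 4335185 counts with 2 µM UNC0638 to 12019651 in the GFP-mid library, and 3 counts, taken as the floor, stood for 0.238 to 0.724 CPM. The 12 germ cell markers (Ddx4, Dazl, Zbtb16 and others) had no gene at 0 in any library and summed to between 3733 CPM in the mesenchymal-like library and 5691 CPM in the GFP-low library. The 16 fibroblast markers (Col1a1, Col3a1, Pdgfrb and others) summed to 5164 CPM in the mesenchymal-like library and to 2565 CPM in the DMSO library. In the other 10 libraries the fibroblast sum was between 71.6 and 836 CPM. Myeloid markers, of which 11 of 12 listed were in the tables, summed to 1890 and 1754 CPM in the low and mid GFP libraries, 222 CPM in GFP-high and at most 43.9 CPM elsewhere. Endothelial and Sertoli or Leydig cell markers stayed between 9.66 and 33.0 CPM in every library. In bulk RNA, fewer cells of a type and less RNA per cell cannot be told apart.

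The mesenchymal-like culture held the highest level of 7 of the 8 members, and DMSO-treated feeder culture held the next highest level of 6 of those 7. The other member, Plat, was highest in the DMSO library. These 2 libraries also had the highest fibroblast marker sums, and the part of fibroblast RNA in the members' levels was not tested. Because each group had 1 library, the differences below could not be checked against replicates and carry no p-value. Intervals are 95% intervals of counting error only. PCR copies of a molecule were not told apart by molecular identifiers, so the intervals can be too narrow even for that error.

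**Figure D1:**
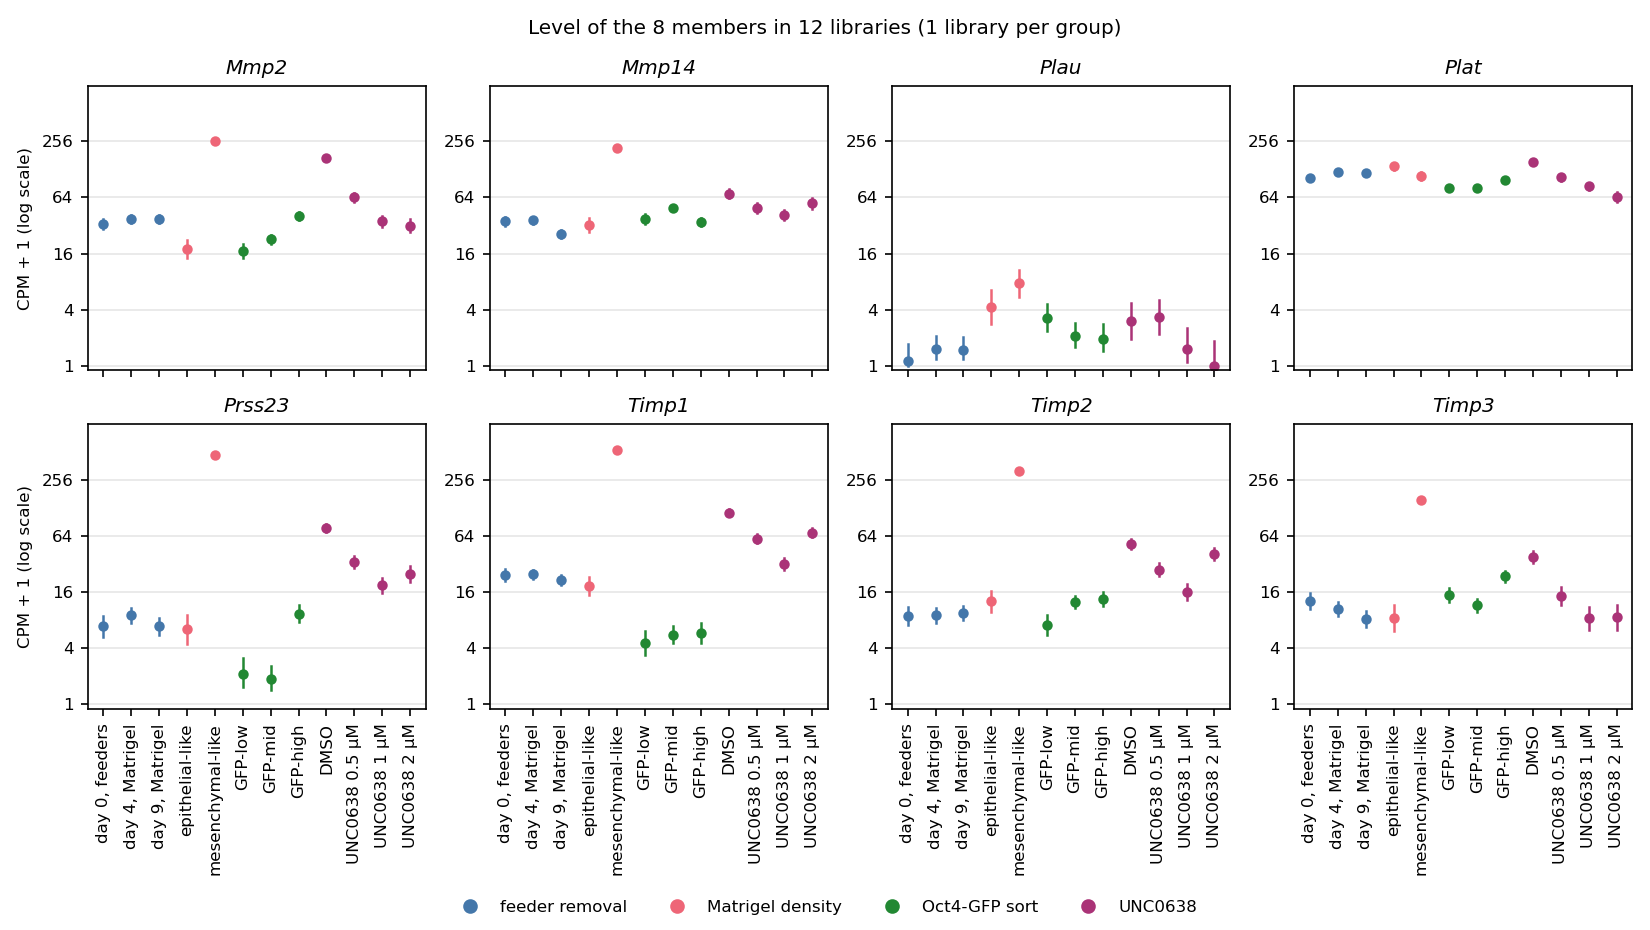
Level of each gene in the 12 libraries, as CPM + 1 on a log scale, coloured by experiment; each point is 1 library and the line is its 95% Poisson counting interval. The mesenchymal-like library stands highest in every panel except Plat, and Plat stays between 63.5 and 152 CPM throughout.

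The gelatinase gene Mmp2 lies on chromosome 8 at 92827290 to 92853421 (GRCm38.p6). Its level ran from 16.0 CPM in the GFP-low library to 258.6 CPM in the mesenchymal-like library, a span of 16.1-fold, with a median of 35.6 CPM and 168.3 CPM in the DMSO library. In the order of its 12 levels, 4 of the 11 steps between neighbours exceeded counting error, among them the 3 highest. From GFP-high at 39.4 CPM down to 2 µM UNC0638 at 30.9 CPM, 6 libraries could not be separated from their neighbours.

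Mmp14, the membrane-anchored activator of pro-MMP2 (chromosome 14, 54431598 to 54442456), had a narrower range. It spanned 8.65-fold, from 25.0 CPM at day 9 to 216.1 CPM in the mesenchymal-like library, with a median of 38.7 CPM. Only 3 of its 11 neighbour steps exceeded counting error, and without the mesenchymal-like library its highest level was 69.1 CPM (DMSO).

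Plat, which encodes tissue plasminogen activator (chromosome 8, 22757722 to 22782848), varied least. Its level spanned 2.39-fold, from 63.5 CPM with 2 µM UNC0638 to 151.5 CPM with DMSO. On the deposited TPM scale, which corrects for transcript length and so allows comparison between genes, Plat was the most abundant of the 5 proteases in 11 of 12 libraries, at 42.5 to 104.3 TPM. The exception was the mesenchymal-like library, where Prss23 reached 213.1 TPM and Plat 64.6 TPM.

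Plau, the urokinase gene (chromosome 14, 20836662 to 20843388), was near the detection limit. Its counts were 1, 6 and 6 at days 0, 4 and 9, then 14 in the epithelial-like and 28 in the mesenchymal-like library. The sorted low, mid and high fractions gave 18, 14 and 9 counts, and DMSO and the 3 rising doses gave 10, 12, 3 and 0. Its highest deposited level was 4.45 TPM, and 1 of 11 neighbour steps exceeded counting error, that between the 2 density cultures.

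Prss23, a secreted serine protease of uncertain substrate (chromosome 7, 89507783 to 89527187), had the widest range. It ran from 0.871 CPM (11 counts) in the GFP-mid library to 464.1 CPM in the mesenchymal-like library, a span of 533-fold with no pseudocount and of 249-fold on the CPM + 1 scale. The DMSO library followed at 77.5 CPM, 5.99-fold below the highest, and the median was 8.21 CPM.

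Timp1, a secreted inhibitor of many metalloproteinases (chromosome X, 20870166 to 20874737), was the most abundant inhibitor. Its deposited level reached 1014 TPM in the mesenchymal-like library, and it made up between 43.7% and 88.1% of the summed TPM of the 3 inhibitors. In CPM it spanned 150-fold, from 3.51 in the GFP-low library to 528.3, and the 3 sorted fractions had the 3 lowest levels.

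Timp2, which both inhibits MMP2 and helps MMP14 activate it (chromosome 11, 118301061 to 118355411), spanned 51.8-fold, from 6.14 CPM in the GFP-low library to 318.5 CPM. Timp3, whose product stays bound to the matrix (chromosome 10, 86300412 to 86349505), spanned 21.4-fold, from 7.24 CPM at day 9 to 155.0 CPM. Both were highest in the mesenchymal-like library and next highest with DMSO, at 51.5 CPM for Timp2 and 36.9 CPM for Timp3. Of the 11 neighbour steps, 5 exceeded counting error for Timp2 and 3 for Timp3.

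Per transcript length, the levels separated the abundant members from the scarce ones. Timp1 had a median of 51.9 TPM over the 12 libraries (7.80 to 1014) and Plat one of 70.6 TPM (42.5 to 104.3). Mmp2 and Mmp14 followed with medians of 19.9 TPM (8.59 to 126.4) and 25.9 TPM (18.1 to 125.8). Timp2 (5.98 TPM, 2.85 to 129.6), Prss23 (4.58 TPM, 0.48 to 213.1) and Timp3 (4.07 TPM, 2.44 to 48.3) were scarce in most libraries, and Plau had a median of 0.835 TPM and was listed at 0 with 2 µM UNC0638. In the mesenchymal-like library this order was different, with Timp1 followed by Prss23, Timp2, Mmp2, Mmp14, Plat, Timp3 and Plau.

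Of the members, 4 overlap another gene in the RefSeq table, and the library kit is not stated to keep strand, so some of their reads are uncertain. Timp1 lies inside Syn1, which had 21 to 63 counts, and Timp3 lies inside Syn3, which had 18 to 105 counts. Timp2 contains Cep295nl (Ddc8 in the tables), with 0 to 11 counts, and Mmp2 partly overlaps the noncoding Gm45472, which was not matched to a row. In the mesenchymal-like library, Syn1 had 31 counts beside 2188 for Timp1, and Syn3 had 19 beside 642 for Timp3. At the low end the order turned, since the GFP-low library had 37 Syn1 and 28 Timp1 counts.

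Feeder removal asks how the transcripts differ once the fibroblast layer is replaced by Matrigel. No member differed 2-fold at day 4 or day 9, where 2.28% and 2.60% of all genes tested did. The median log2 ratio of the 8 members (of CPM + 1, here and below) was 0.11 at day 4 and 0.05 at day 9, beside 0.03 and 0.02 for all genes. The 2 comparisons share the day 0 library.

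Among the metalloproteinases, Mmp2 was at 32.3, 36.6 and 36.7 CPM on days 0, 4 and 9. Mmp14 was at 34.5, 35.3 and 25.0 CPM. The Mmp2 levels did not separate by counting error, while the Mmp14 difference at day 9 was -0.45 (interval -0.71 to -0.22). Plat stood at 102.2, 119.9 and 115.6 CPM, and both later libraries were above day 0, by 0.23 (0.10 to 0.36) and 0.18 (0.05 to 0.31). Prss23 had 5.83, 8.04 and 5.86 CPM, and neither ratio left the counting interval around 0. The 6 Plau counts on each later day against 1 count at day 0 gave intervals of -1.07 to 7.49 and -1.13 to 7.44, which hold almost no information.

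Of the inhibitors, Timp1 was measured at 23.2, 23.8 and 20.3 CPM on days 0, 4 and 9 and Timp2 at 7.91, 7.96 and 8.54 CPM. Neither differed beyond counting error on either day. Timp3 was at 11.9, 9.56 and 7.24 CPM, and its ratio at day 9 was -0.65 (-1.16 to -0.28), the largest of the 8. The fibroblast marker sum was 245 CPM at day 0, 225 CPM at day 4 and 198 CPM at day 9. Acta2, at 45.0, 59.0 and 6.92 CPM, made most of the difference at day 9, while Col1a1, at 70.5 and 74.8 CPM on days 0 and 9, was not lower. Across these 3 days, 16 of 16 fibroblast markers had counts at days 0 and 4, and 15 of 16 at day 9, when Lum was at 0.

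Around the members, 58 of 82 listed genes of matrix proteolysis (other metalloproteinases, the plasminogen system, ADAM and ADAMTS proteases, other serine proteases, procollagen processing, cathepsins) passed the expression filter. One was 2-fold higher at day 4, and 3 were higher and 1 lower at day 9. Among partners of the members, Serpine2 (protease nexin 1, an inhibitor of plasminogen activators) was at 142.3, 148.2 and 100.3 CPM on days 0, 4 and 9. Reck, which encodes a membrane-anchored metalloproteinase inhibitor, was at 29.3, 32.5 and 42.6 CPM, and its ratio at day 9 was 0.53 (0.31 to 0.77).

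The density experiment compared cells on sparse and dense Matrigel, and the median ratio of the members was the largest of the comparisons within an experiment. Of the 8 members, 6 were at least 2-fold higher in the mesenchymal-like library, against 10.7% of all genes tested that were higher. The members' median log2 ratio was 4.03, beside -0.06 for all genes. Plau and Plat were the exceptions.

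Mmp2 was at 16.9 CPM in the epithelial-like and 258.6 CPM in the mesenchymal-like library, a 14.5-fold difference of CPM + 1 (log2 3.86, interval 3.59 to 4.30). Mmp14 was at 31.2 and 216.1 CPM, which is 6.74-fold (2.75, 2.53 to 3.07). On the TPM scale the 2 genes came out level in the mesenchymal-like library, at 126.4 and 125.8 TPM, whereas in the epithelial-like library Mmp14 had 18.9 TPM and Mmp2 8.59 TPM. Prss23 went from 5.40 to 464.1 CPM, a 72.7-fold difference (6.18, 5.84 to 7.09), and only 2 of the 14301 genes tested had a higher ratio. With a pseudocount of 5 its log2 ratio was 5.50.

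Neither plasminogen activator reached the 2-fold call. Plat was at 136.4 CPM in the epithelial-like and 107.7 CPM in the mesenchymal-like library, a log2 ratio of -0.34 (-0.52 to -0.16). Plau was at 3.29 and 6.76 CPM, a ratio of 0.86 from 14 and 28 counts (0.07 to 2.08), in the same direction as the 6 called members. With a pseudocount of 0.1 CPM its ratio was 1.02, past the call.

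All 3 inhibitors were higher in the mesenchymal-like library. Timp1 was at 17.6 and 528.3 CPM, a 28.5-fold difference (log2 4.83, 4.58 to 5.26). Timp2 stood at 11.7 and 318.5 CPM, which is 25.1-fold (4.65, 4.35 to 5.20), and Timp3 at 7.51 and 155.0 CPM, which is 18.3-fold (4.20, 3.86 to 4.93). The median ratio of the inhibitors was 4.65 and that of the proteases 2.75.

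Part of the other genes of matrix proteolysis were higher too. Of the 58 tested, 30 were at least 2-fold higher in the mesenchymal-like library and 0 lower, with a median log2 ratio of 1.09. In the plasminogen list 8 of 9 tested were higher, in procollagen processing 4 of 4, among cathepsins and cystatins 7 of 11, among ADAM and ADAMTS proteases 6 of 14 and among other metalloproteinases 4 of 10. Serine proteases and activators had 1 of 9 higher, with 4 of 9 below a ratio of 0 and a median of 0.03, and the single other metalloproteinase inhibitor tested was not called. Some inhibitors of plasminogen activators were in this set. Serpine2 was at 34.7 CPM in the epithelial-like and 341 CPM in the mesenchymal-like library, and Serpinb2, a urokinase inhibitor, was at 2.58 and 119.5 CPM. Serpini1 (neuroserpin, an inhibitor of PLAT), named after its values were seen, was the 1 of 9 not higher, at 34.0 and 25.6 CPM.

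Plaur, the urokinase receptor, was at 10.8 CPM in the epithelial-like and 29.5 CPM in the mesenchymal-like library. Plg, the gene of plasminogen itself, had 2 counts in each of them. Among listed genes with at least 50 counts, the largest ratios belonged to Tll1 (a procollagen C-proteinase, 1 and 226 counts, log2 interval 5.37 to 13.2), Htra1 (a secreted serine protease, 4.22 and 212.7 CPM) and Ctsk (cathepsin K, a collagenase, 2 and 210 counts). Serpinb2 and Adamts2 (a procollagen N-proteinase, 1.41 and 72.9 CPM) came next. Reck did not differ beyond counting error, at 37.6 and 42.7 CPM (ratio 0.18, -0.13 to 0.50), and Timp4 had 0 counts in both libraries.

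Fibroblast markers differed in the same direction as the members. Of the 16, 15 were at least 2-fold higher in the mesenchymal-like library, with a median log2 ratio of 4.83 and none at 0 in either library, and their sum was 179 CPM in the epithelial-like library. Col1a1 had 84.0 and 2377 CPM, and Pdgfra had 30.7 and 33.6 CPM. The germ cell list had 0 of 12 markers called and a median ratio of -0.31. Whether the members' transcripts came from germline cells or from fibroblasts in the culture was not tested.

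**Figure D2:**
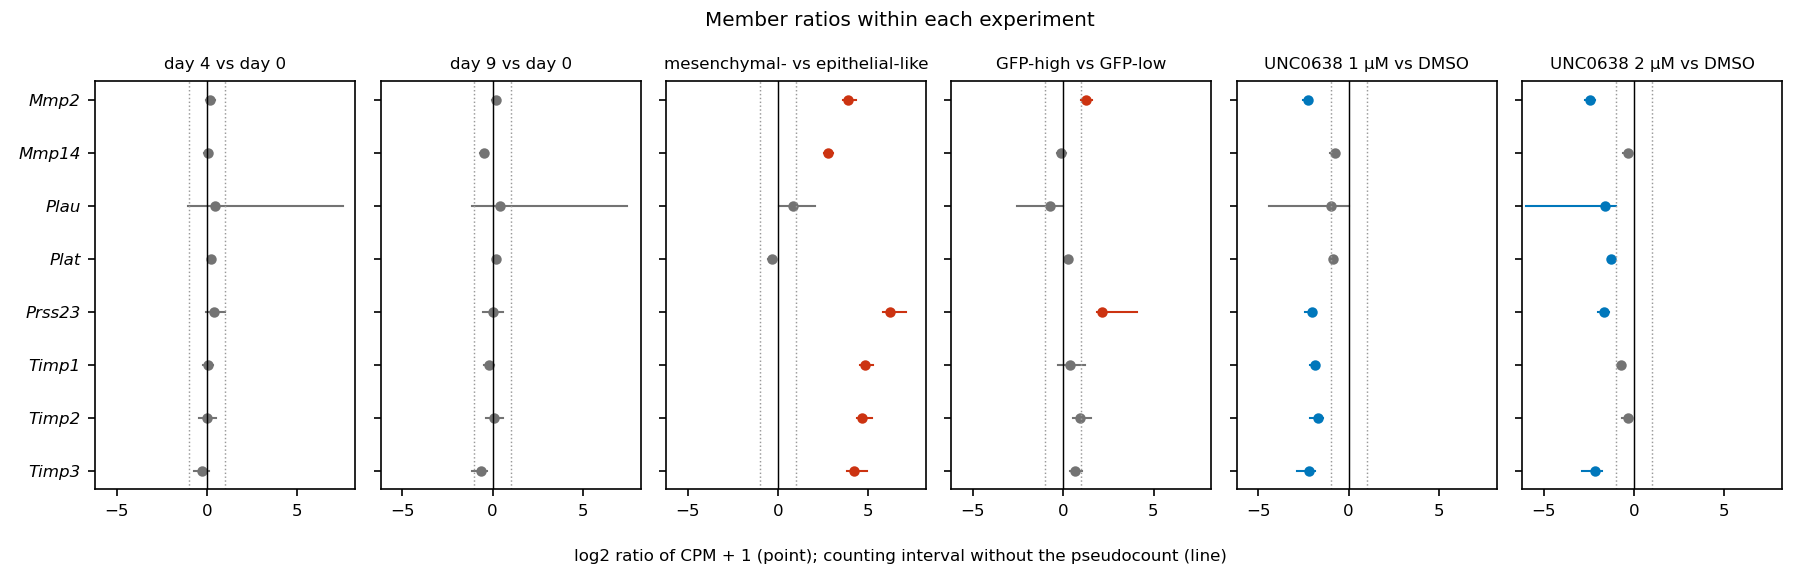
Log2 ratio of CPM + 1 for each gene in 6 of the comparisons (point) with the 95% read-split interval without the pseudocount (line); dotted lines mark 2-fold, red is at least 2-fold higher and blue at least 2-fold lower. The 6 red points of the density comparison lie between 2.75 and 6.18, and the Plau line at 2 µM, which has no lower bound, is drawn to the edge of the plot.

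The reporter series addresses differences between cells with less and more Oct4-GFP on dense Matrigel. Against the GFP-low fraction, none of the 8 members differed 2-fold in GFP-mid (4.07% of all genes did) and Mmp2 and Prss23 were higher in GFP-high (6.94% of all genes were higher). Both comparisons use the GFP-low library. The median ratio of the members was 0.15 for GFP-mid and 0.51 for GFP-high, beside -0.01 and -0.02 for all genes.

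Mmp2 was at 16.0, 21.7 and 39.4 CPM in the low, mid and high fraction, so it was lowest in low and highest in high. The GFP-high ratio was 2.37-fold (log2 1.24, 1.00 to 1.60). Prss23 was at 1.13, 0.871 and 8.39 CPM, from 9, 11 and 79 counts, and its GFP-high ratio was 4.41-fold (2.14, 1.90 to 4.07). With pseudocounts of 0.1 and 5 this ratio was 2.79 and 1.13. Mmp14 was instead highest in the middle fraction, at 36.5, 48.0 and 33.9 CPM. Plat stood at 79.5, 78.8 and 97.4 CPM, with a GFP-high ratio of 0.29 (0.15 to 0.44), and Plau was at 2.26, 1.11 and 0.955 CPM.

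Of the inhibitors, Timp1 had its 3 lowest levels of the 12 libraries in these fractions. It was at 3.51, 4.59 and 4.78 CPM and did not differ beyond counting error in either comparison. Timp2 was at 6.14, 11.5 and 12.4 CPM, ratios of 0.81 (0.43 to 1.40) and 0.91 (0.52 to 1.53), which stayed under 2-fold. Timp3 was at 13.9, 10.5 and 22.6 CPM, a GFP-high ratio of 0.66 (0.36 to 1.04), and its levels in GFP-low and GFP-high were above its median of 11.2 CPM over the 12 libraries.

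Of the 58 other proteolysis genes, 1 was higher and 1 lower in GFP-mid, and 10 were higher and 4 lower in GFP-high (2.59% of all genes were lower). Those lower included Ctss (cathepsin S, typical of antigen-presenting cells), at 70.5, 74.2 and 5.31 CPM in GFP-low, GFP-mid and GFP-high. Mmp9 (a gelatinase abundant in myeloid cells) was at 131.7, 67.1 and 55.5 CPM. It was also at 67.8 CPM in the epithelial-like library, where the myeloid sum was 23.2 CPM. Higher in GFP-high were Adamts5 (an aggrecanase), with 0 counts in GFP-low and 60 in GFP-high, Mmp17, at 2.88 and 9.87 CPM, and the procollagen enhancer Pcolce, at 2.38 and 7.01 CPM. Plaur was at 5.27 CPM in GFP-low and 1.91 CPM in GFP-high.

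Myeloid markers differed between GFP-low and GFP-high, and fibroblast markers did so in part. All 10 myeloid markers tested were at least 2-fold lower in GFP-high than in GFP-low, and none of the 11 was at 0 in any fraction. For GFP-mid against GFP-low, 0 of the 10 were called, with 6 above and 4 below a ratio of 0. The fibroblast sum was 71.6, 99.6 and 179 CPM in the same order, with 6 of 16 markers higher in GFP-high and 1 at 0 in each fraction (Twist2, Dcn and Lum in that order). Col1a1, at 22.2, 50.9 and 104.3 CPM, carried most of that sum's difference, and 6 of 16 markers had ratios below 0 in GFP-high, Acta2 (-0.51) and S100a4 (-0.60) among them. In GFP-mid 3 markers were higher and 2 lower. The part of either marker list in the Mmp2 and Prss23 differences was not tested.

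The mesenchymal-like culture and the sorted fractions share the 10 µg/cm2 density, so their levels were set side by side in comparisons added after the values had been seen. In the unsorted culture 7 of 8 members were at least 2-fold higher than in GFP-low, in GFP-mid and in GFP-high, where 12.4%, 10.3% and 11.2% of all genes were higher. Prss23 was at 464.1 CPM unsorted and at most 8.39 CPM sorted, and Timp1 was at 528.3 and at most 4.78 CPM. Plat, the remaining member, had log2 ratios of 0.43, 0.45 and 0.14. The last was within counting error (-0.02 to 0.31) and was -0.20 on the deposited TPM scale. The unsorted library had a fibroblast sum of 5164 CPM, and sorting and experiment cannot be told apart here.

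The inhibitor series asks how feeder culture differs when H3K9 methyltransferases are inhibited, and the members were mostly lower in the treated libraries. At 0.5 µM, 3 of 8 were at least 2-fold lower than with DMSO (2.13% of all genes were lower). At 1 µM and at 2 µM, 5 of 8 were lower (4.12% and 3.59% of all genes), of which Plau at 2 µM was not called with a pseudocount of 5 (log2 -0.48 instead of -1.58), and at each dose 0 members were 2-fold higher. The median log2 ratio was -0.92, -1.77 and -1.41 at the 3 doses, beside -0.01, 0.00 and -0.02 for all genes, and the comparisons share the DMSO library.

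The metalloproteinases parted. The level of Mmp2 with DMSO, 168.3 CPM, compared with 63.0, 34.6 and 30.9 CPM at 0.5, 1 and 2 µM, which is 37.4%, 20.5% and 18.4% of the DMSO level. At 2 µM its difference was 5.30-fold (log2 -2.41, -2.72 to -2.18), and 29 of 14301 genes had a lower ratio. Mmp14 was at 69.1, 47.8, 40.8 and 54.3 CPM and stayed at 59.1% or more of its DMSO level at every dose.

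Plat was lower at each higher dose, at 151.5, 103.6, 82.7 and 63.5 CPM, and passed 2-fold at 2 µM (log2 -1.24, -1.46 to -1.06). Plau had 10, 12, 3 and 0 counts. Against a floor of 3 counts (0.687 CPM), its 0 counts at 2 µM were at least 2.90-fold lower than with DMSO. That bound leaves out the counting error of the 10 DMSO counts, and with it the log2 ratio lay below -0.97. Prss23 was at 77.5, 32.4, 18.0 and 24.1 CPM and was 2-fold lower at all 3 doses.

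All 3 inhibitors had their lowest level at the middle dose, as did Mmp14 and Prss23. Timp1 was at 112.2, 58.5, 30.7 and 68.3 CPM with DMSO, 0.5, 1 and 2 µM. Timp2 was at 51.5, 26.8, 15.0 and 40.1 CPM. Between 1 and 2 µM both were higher at the top dose, by 1.13 for Timp1 (0.88 to 1.43) and 1.36 for Timp2 (1.04 to 1.81) on the log2 scale, so that at 2 µM they stood at 60.8% and 77.8% of DMSO. Timp3 was at 36.9, 13.5, 7.33 and 7.56 CPM, a 2 over 1 µM ratio of 0.04 (-0.66 to 0.74). Among the proteases, Mmp14 (0.40, 0.14 to 0.68) and Prss23 (0.40, 0.01 to 0.83) were also higher at 2 than at 1 µM, Plat was lower (-0.38, -0.60 to -0.17), and Mmp2 did not separate (-0.16, -0.49 to 0.16).

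**Figure D3:**
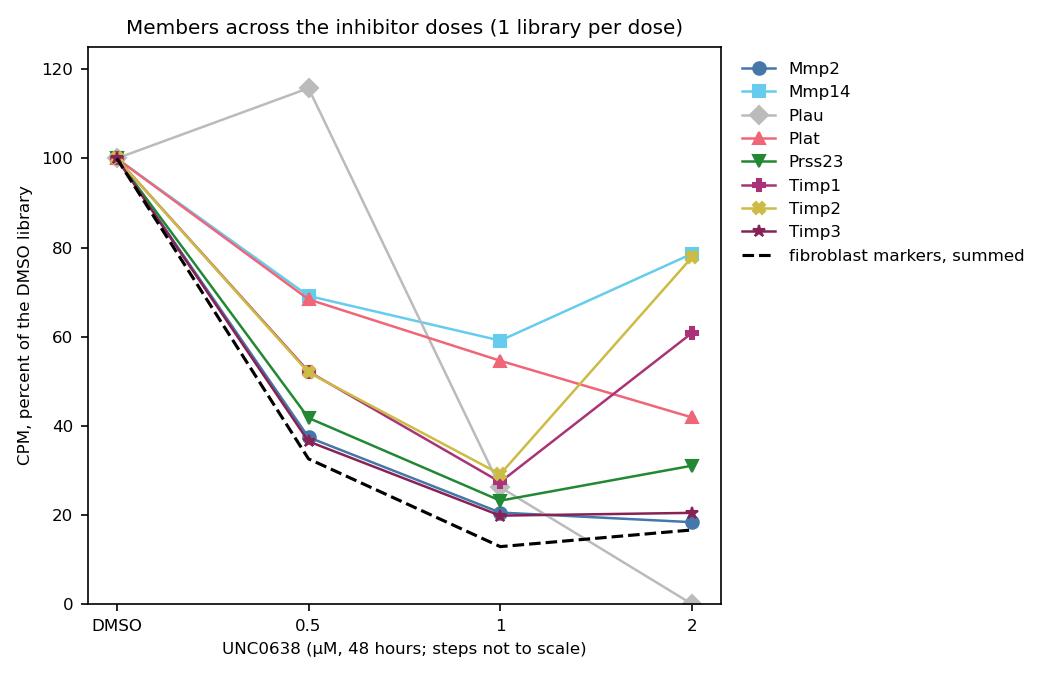
CPM of each gene as a percent of its DMSO level with 0.5, 1 and 2 µM UNC0638 (steps not to scale), 1 library per dose; the dashed line is the summed level of 16 fibroblast markers. Timp1, Timp2, Mmp14 and Prss23 turn upward at 2 µM, to 60.8%, 77.8%, 78.6% and 31.1%, and the dashed line goes from 12.9% to 16.6% between 1 and 2 µM.

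Fibroblast markers were lower along with the members. Their sum with DMSO was 2565 CPM, and at 0.5, 1 and 2 µM it was 836, 331 and 427 CPM, which is 32.6%, 12.9% and 16.6% of DMSO. At least 2-fold lower were 10, 15 and 12 of the 16, and none was at 0 in any of the 4 libraries. Germ cell markers summed to 4370 CPM with DMSO and 4663, 4436 and 4028 CPM at the rising doses, with 0 of 12 called at any dose. The part of a smaller fibroblast share in the lower member levels was not tested.

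The direction of the ratios was not the same in every wider protease list, and differences between lists were not tested. Of 58 genes, 9, 18 and 14 were at least 2-fold lower at 0.5, 1 and 2 µM, and 1, 1 and 0 were higher. At 2 µM, 40 of the 58 had ratios below 0 and 17 above, and of the 9 plasminogen system genes 9 were below. The serine proteases and activators had 6 above and 3 below (median 0.12), but 3 above and 6 below at each lower dose. Pcsk5, in that list, had 64 counts with DMSO and 29, 12 and 4 at the rising doses. Cathepsins and cystatins had 5 above and 5 below at 2 µM. Mmp3 (stromelysin 1, which activates other metalloproteinases) stood at 72.7 CPM under DMSO and at 27.9, 6.46 and 17.0 CPM over the 3 doses. Mmp13, a collagenase, had 54 counts with DMSO and 16, 1 and 0 with the doses. Adamts5 stood at 45.5 CPM under DMSO and at 7.16 and 8.93 CPM for 1 and 2 µM. Serpine2 was at 229.2, 161.2, 91.4 and 96.2 CPM and Plaur at 18.4, 10.4, 11.9 and 8.25 CPM, while Reck stayed between 34.9 and 44.3 CPM.

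The 2 feeder cultures without UNC0638, day 0 and DMSO, were not alike. With DMSO, 6 members were at least 2-fold higher (12.2% of all genes were higher), Mmp2 by 5.09-fold, Prss23 by 11.5-fold, Timp2 by 5.89-fold and Timp1 by 4.68-fold. With a pseudocount of 5 the Prss23 log2 ratio was 2.93 instead of 3.52. Plau had 1 and 10 counts (log2 interval 1.13 to 9.38), and its ratio of 1.41 was 0.45 with a pseudocount of 5. Mmp14, at 34.5 and 69.1 CPM (0.98), and Plat, at 102.2 and 151.5 CPM (0.56), stayed under 2-fold. The fibroblast sum was 245 and 2565 CPM, 13 of 16 markers were higher, and solvent and experiment cannot be told apart.

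**Figure D4:**
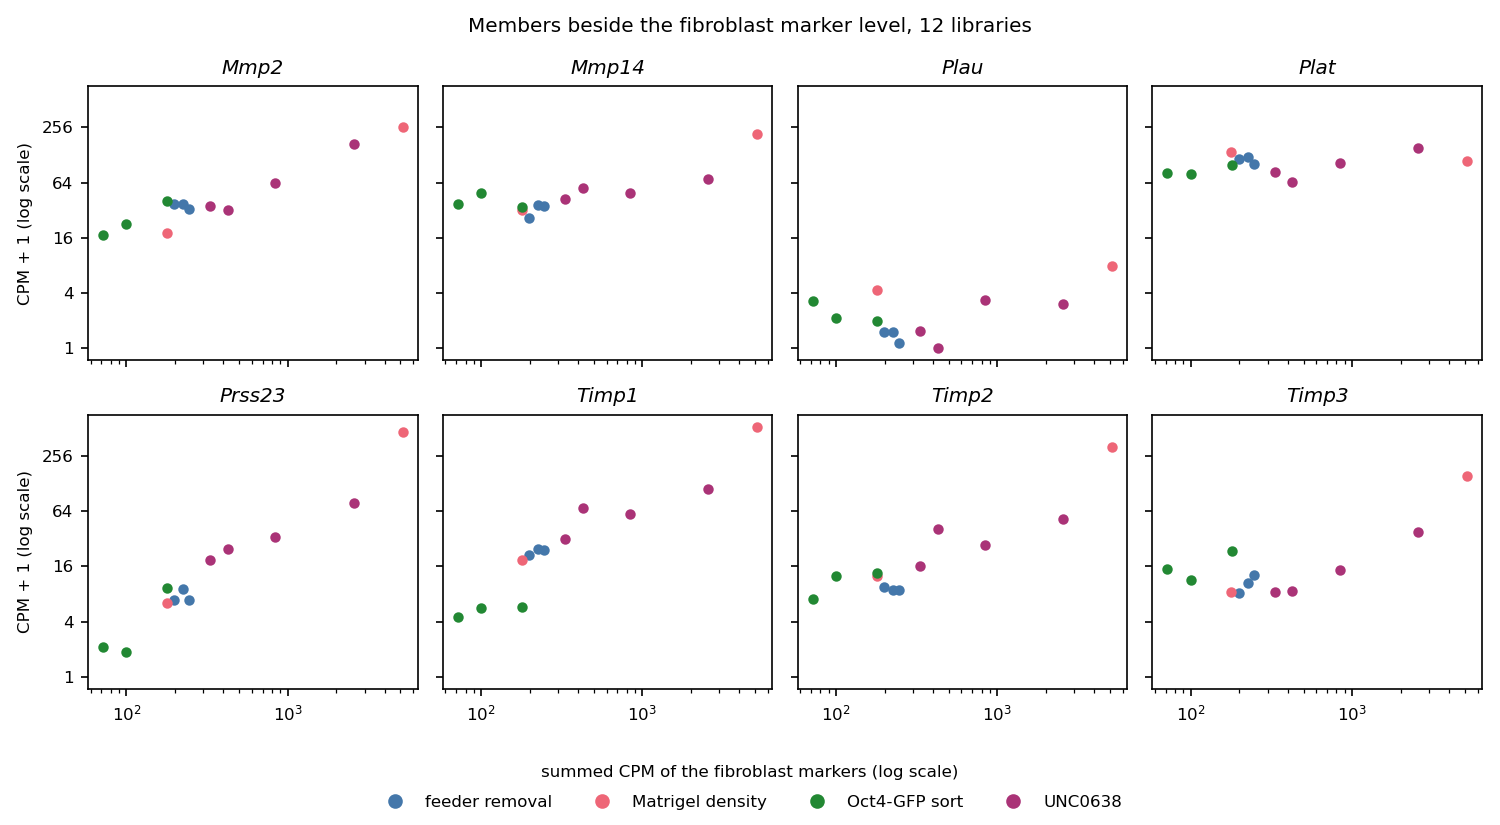
CPM + 1 of each gene (log scale) against the summed CPM of 16 fibroblast markers (log scale) in the 12 libraries, coloured by experiment, 1 point per library. Timp1 runs from its lowest levels in the sorted fractions to its highest at the fibroblast sum of 5164 CPM, whereas Plat stays between 63.5 and 152 CPM. At a fibroblast sum of 179 CPM, Timp1 was at 4.78 CPM in GFP-high and 17.6 CPM in the epithelial-like library.

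The balance of inhibitor to protease transcripts also differed between libraries. On the deposited TPM scale the 5 proteases summed to 89.9 to 534 TPM and the 3 inhibitors to 15.6 to 1192 TPM. Inhibitor transcripts exceeded protease transcripts in the mesenchymal-like library, by 2.23 to 1, and with 2 µM UNC0638, by 1.56 to 1. With DMSO the ratio was 0.987, and with 0.5 and 1 µM it was 0.929 and 0.677. In the feeder-removal series it lay between 0.426 and 0.514, and in the epithelial-like library it was 0.357. The sorted fractions had the lowest values, from 0.173 in GFP-low to 0.210 in GFP-high. Plat made up 12.1% to 72.5% of the protease sum (median 55.9%) and, like Plau and Prss23, is a serine protease, whereas TIMPs block metalloproteinases. Against Mmp2 and Mmp14 alone, a sum added after the values were seen, inhibitor transcripts exceeded protease transcripts in 9 of 12 libraries. That ratio was 1.35 to 1.43 in the feeder-removal series, 1.53 in the epithelial-like library, 4.73 in the mesenchymal-like library and 1.65 to 3.19 in the inhibitor series. Only in the 3 sorted fractions was it below 1, at 0.437 to 0.550. The Mmp2 and Mmp14 sum leaves out the other metalloproteinases, so it does not give the balance for the whole family. Mmp9, which is not a member, ran from 8.56 TPM at day 0 to 70.9 TPM in GFP-low. In the epithelial-like library Mmp9 was at 33.4 TPM, beside 27.5 TPM for Mmp2 and Mmp14 summed and 41.9 TPM for the inhibitors. Plat was the most abundant member by TPM in 7 libraries and Timp1 in the other 5, which were the mesenchymal-like library and the 4 of the inhibitor series. These are transcript sums and do not measure enzyme activity.

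**Figure D5:**
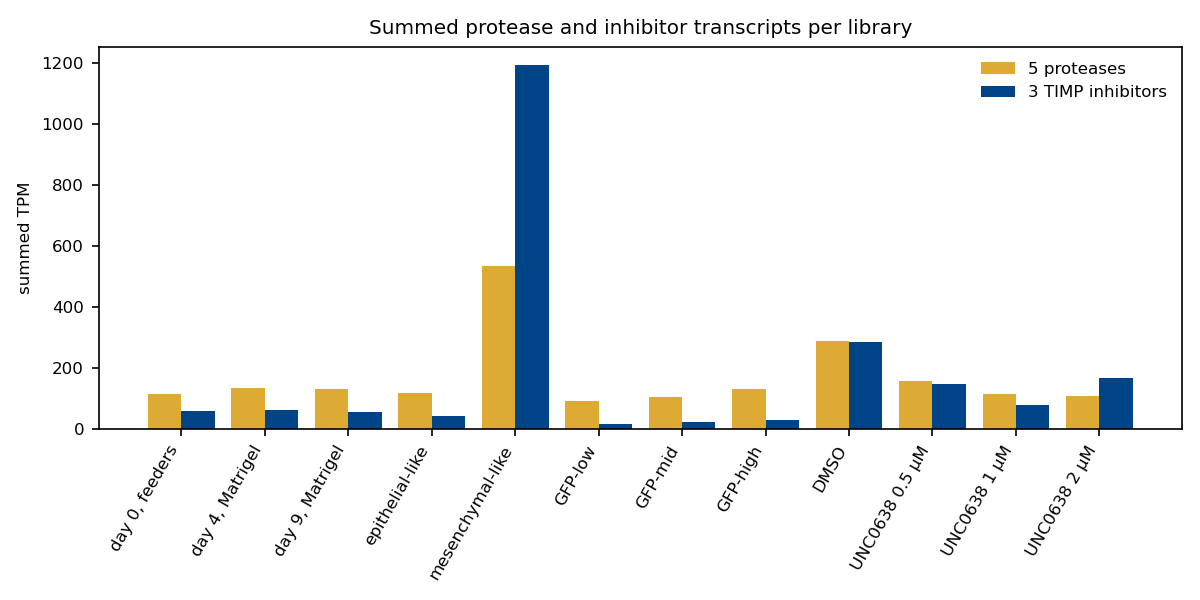
Summed deposited TPM of the 5 proteases and of the 3 TIMP inhibitors in each library, 1 library per bar. The inhibitor bar is higher than the protease bar in the mesenchymal-like library (1192 against 534 TPM) and with 2 µM UNC0638 (166 against 107 TPM).

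Within the set, Timp1 and Timp2 had the most similar patterns over the 12 libraries. Likeness was measured as the mean absolute difference of log2(CPM + 1), each gene centred on its mean within each experiment, and was 0.15 for this pair and 0.21 for Mmp2 and Timp3. The least alike were Plau and Prss23, at 0.98. With 1 library per group, the measure is a description.

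Among the 9591 genes averaging 10 CPM or more that are not members, those nearest to Mmp2 were Osmr (0.17), Pdgfrb (0.18) and Serpinf1 (0.20), and those nearest to Timp3 were Col6a1 (0.14), Col8a1 (0.17) and Pdgfrb (0.22). Prss23 lay nearest to Anxa1 (0.18), Bgn (0.23) and Cyr61 (0.23). For Timp1 the nearest were LOC100041194 (0.07), Mxra8 (0.14) and S100a6 (0.16), and Mxra8 (0.16) and LOC100041194 (0.18) were also the nearest to Timp2, followed by Ass1 (0.19). Mmp14 was nearest to Lgals1 (0.10), Cyb5 (0.12) and Sept8 (0.13). Plat, the steadiest member, was nearest to BC057079, Rhd and Emb, at 0.10 to 0.11, and Plau, which had few counts, was nearest to Farp2 (0.14), Rnf5 (0.19) and Scotin (0.19).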

How the data were processed

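RNA was extracted with a column kit and made into libraries with a modified Smart-seq2 procedure and a tagmentation kit, per the labels' protocols. Trim Galore, RSEM and mm10 are named in the submitters' processing notes. Each table lists 27128 genes with expected count, TPM and FPKM columns, per the file headers. The authors deposited the expected counts (estimated counts from RSEM) without normalization, and they were rounded here to whole numbers. By definition, TPM corrects for transcript length and sums to the same total in every library. FPKM was not used. A share of 8.52% to 10.7% of genes per library had a count that was not whole. Depth was 4335185 to 12019651 counts.

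CPM were computed with TMM factors (0.912 to 1.07) from edgeR 4.0.16 in R 4.3.3. The 14301 genes averaging at least 1 CPM were tested. Ratios are log2 of CPM + 1, which understates differences of low genes, and calls were made at 2-fold. Ratio intervals (95%) are Clopper-Pearson on the read split of 2 libraries, without the pseudocount, so at low counts a point can lie outside its interval; level intervals are exact Poisson. No p-values were computed, because every group had 1 library.

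The members and gene lists were chosen with earlier results of these data known. Of the 7 proteolysis lists, 81 of 82 genes were in the tables. The pathway genes named were the 5 with the largest ratio past 2-fold and at least 50 counts in a comparison, or as many as reached this, together with Plaur, Plg, Serpine2, Reck and Timp4. Not all were printed, and 1 gene is not reported here. Other genes were named for overlap, likeness to a member or as markers. Positions and promoters come from RefSeq tables of GRCm38.p6. Alternatives were a pseudocount of 0.1 or 5, size factors from DESeq2 1.42.0, scaling by totals, deposited TPM, leaving out the filter or raising it to 10 CPM, a call at 1.5-fold and a call that also needed the interval. Steps were tested on simulated counts. Scripts ran in Python 3.11.15 (scipy 1.17.1, pandas 2.3.3, numpy 2.4.6, matplotlib 3.10.9).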

Additional observations from a re-analysis of the deposited data

How the results depend on the processing

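With 1 library per group, no replicate could be left out. No paired analysis was possible because each RNA group has 1 library. Over 5 other scalings or pseudocounts, 360 member ratios were recomputed: 0 of those called reversed, 354 kept their sign and 351 their side of 2-fold, 14 moved beyond their counting interval, and 7 of the 9 that crossed were Plau. The other 2 were Timp2 in GFP-high against GFP-low and Mmp14 in DMSO against day 0, both at 1.00 with a pseudocount of 0.1. With that pseudocount, 1 member was called at day 4, 1 at day 9 and 4 in GFP-high against GFP-low. With the call at 1.5-fold, members called were 1 at day 9, 2 in GFP-mid, 5 in GFP-high, 5 with 0.5 µM and 8 with 1 µM UNC0638. The other counts of members called stayed within 1.5 times. These alternatives covered the 9 fixed comparisons and not the 3 added ones of the mesenchymal-like culture with the sorted fractions. The number of all genes called was 326 at day 4, 372 at day 9, 1781 for mesenchymal-like against epithelial-like, 582 for GFP-mid, 1364 for GFP-high, 531, 960 and 1003 for 0.5, 1 and 2 µM UNC0638 and 2776 for DMSO against day 0. In that order it was 17, 30, 1004, 182, 521, 76, 302, 228 and 1299 with a pseudocount of 5. With only genes averaging 10 CPM it was 29, 84, 680, 280, 622, 96, 303, 285 and 1507. At 1.5-fold it was 1540, 1776, 3821, 2260, 3598, 1967, 2581, 3160 and 5920. A pseudocount of 0.1 moved 7 of the 9 by more than 1.5 times, to 1031 at day 4, 1025 at day 9, 1267 and 2150 for GFP-mid and GFP-high, and 1169, 1656 and 1751 for the 3 doses. The deposited TPM put the median of all genes at 0.13 at day 9 and 0.11 in GFP-high, against 0.02 and -0.02, and total counts put the density comparison at -0.12. Plau had at most 28 counts in a library.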
